A study of Homo sapiens with 18 samples.

Results

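The data described here come from MSC-hTERT cells that expressed SRF-RELA, a fusion of serum response factor (SRF) with the NF-kB subunit RELA, set against the same cells expressing SRF alone. They make up 6 of the 18 RNA-seq libraries of the study, 3 per group, chosen by their labels, and all genes of the count table were used. MSC-hTERT is a human mesenchymal stem cell line made immortal with telomerase, and every group shares this background and the same serum- and FGF-2-containing medium. The other libraries are 3 each of pMSCV, which names a retroviral vector and was treated as the control, and of the fusions SRF-FOXO1, SRF-ICA1L and SRF-PDGFRB. The labels do not give the breakpoint of the fusion, whether a line is a clone or a pool, or whether replicates are separate cultures. The p-values therefore measure only the spread between these libraries, which may be technical.

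SRF binds the CArG box, a short DNA element in promoters of actin, smooth muscle and immediate early genes. It is switched between these target groups by its partners, the actin-sensing MRTF and myocardin coactivators and the ternary complex factors that respond to growth factor signals. RELA, also called p65, carries a strong activation domain and is held in the cytoplasm by the inhibitor NFKBIA until inflammatory signals release it. SRF-RELA fusions are known from cellular forms of myofibroma and myopericytoma, soft tissue tumours with smooth muscle features. The comparison sets the fused protein beside SRF expressed alone.

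The 6 libraries held 22512032 to 28805368 counts and 27356 to 28058 genes with at least 1 count. Levels are given in CPM, a library's count of a gene scaled to a fixed total, and sets of 3 values follow the order of replicates 1, 2 and 3. The libraries numbered 2 stood apart in the level of FOS in every group, and the labels do not say what the number marks. FOS, an immediate early gene, was at 832, 13.6 and 622 CPM in the vector libraries, 1114, 24.7 and 631 in SRF and 790.3, 32 and 407 in SRF-RELA, so that replicate 2 was the lowest of each set. Mesenchymal markers were present in every library: the 8 markers, which include NT5E, THY1, ENG and VIM, summed to 4683 to 5592 CPM in SRF and 3830 to 4946 in SRF-RELA, and none passed the edgeR test (1 at an unadjusted p under 0.05; THY1 by DESeq2, log2 fold change 1.07). The 8 haematopoietic markers summed to 2.19 to 3.89 CPM in SRF and 1.95 to 3.84 in SRF-RELA, with CD3E at 0 counts. The 8 epithelial markers summed to 55.4 to 148 and 79.2 to 157 CPM, with KRT5 at 0 counts and most of the sum in KRT8 and KRT18, 2 keratins that many cultured cells express.

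Both construct genes differed between the groups. The labels give a direction for RELA and none for SRF, which the labels of both groups name. SRF was at 1036, 1122 and 678 CPM in the SRF libraries and 326, 324 and 328 in SRF-RELA, against 61.1, 64.4 and 57.3 with the vector. All 6 libraries thus lay above the vector, and the SRF-RELA libraries lay below the SRF libraries with no overlap (log2 fold change -1.51, SE 0.23, edgeR adjusted p = 0.00881, 0.00273 with the replicate number as a block). The adjusted p of SRF rose to 0.05 without SRF replicate 1, 0.0528 without SRF replicate 2 and 0.0509 without SRF-RELA replicate 2, with log2 fold changes between -1.53 and -1.38. RELA was at 93.5, 97.5 and 92.6 CPM in SRF and 267, 234 and 268 in SRF-RELA, with no overlap and with the vector libraries at the SRF level (95.6, 95.3 and 89). Its log2 fold change of 1.46 (SE 0.08) had the smallest adjusted p of all genes, 9.45e-08, and held in each fit without 1 library. Counts of both genes hold reads of the native gene on chromosome 6 (SRF) or 11 (RELA) together with reads of the construct. Every contrast with the SRF group is therefore a contrast with cells that carried more SRF reads than the fusion cells.

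A total of 18544 genes were tested. At an adjusted p under 0.05, 63 genes were higher in SRF-RELA (0.340% of those tested) and 9 were lower (0.0485%), together 72 (0.388%). With the replicate number as a block, 233 genes were higher (1.26%) and 88 lower (0.475%), together 321 (1.73%). The 72 genes were all among the 321, in the same direction, and 249 genes passed only with the block, 170 of them higher. Unblocked, 1769 genes had an unadjusted p under 0.05. The 3 libraries of one group lay wholly above those of the other in each of the 72 genes, and in 15.2% of all genes tested.

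The higher genes made the larger group. Their log2 fold changes ran from 0.49 to 10.80 and were at least 1 in 60 of the 63, while the lower genes ran from -4.94 to -0.60. In 34 of the 63 the mean level in the SRF libraries was under 1 CPM, and 56 of the 63 are protein coding. The highest SRF-RELA library was replicate 2 in 48 of the 63, against 26.7% of all genes tested. Without 1 library at a time the count fell to between 13 and 56. It was 13 without SRF replicate 1, 14 without SRF replicate 2, 22 without SRF replicate 3, 18 without SRF-RELA replicate 2 and 39 without SRF-RELA replicate 3. With the pairs numbered 2 left out of all groups it was 11.

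**Figure D1:**
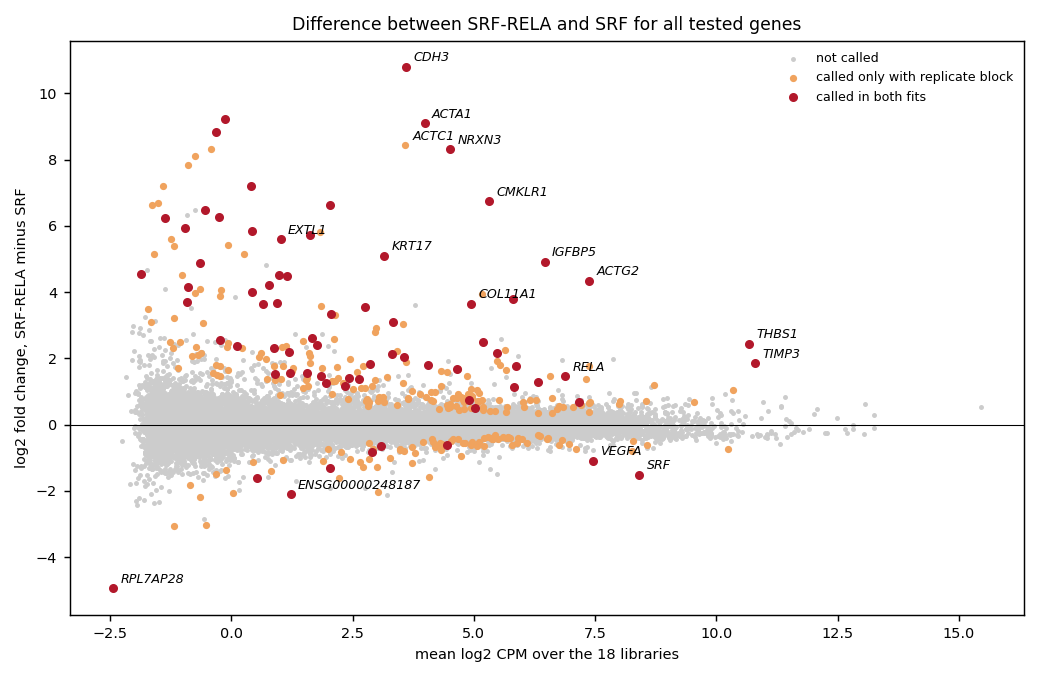
Log2 fold change of SRF-RELA against SRF (vertical axis) by mean log2 CPM (horizontal axis) for the 18544 genes tested, 1 point per gene. Coloured points are the 63 higher and 9 lower genes called without the block and the genes called only with it. The higher genes reach 10.80 and the lower genes -4.94.

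The genes that passed in every fit without 1 library numbered 13: RELA itself and 12 others, all higher. Other settings lost some of these calls. With only the 2 groups in the fit, DUSP2, EXTL1, NES, PLN, PTER, PTPN7 and SLC5A3 did not pass (adjusted p = 0.0656 to 0.147). With all libraries numbered 2 left out, COL11A1, DUSP2, PLN, PTER, PTPN7, SLC5A3 and ST6GAL2 did not pass (adjusted p = 0.075 to 0.310). RELA, CMKLR1, CDH3 and IGFBP5 passed in both. By known role the 12 fall into surface and signalling genes, matrix and glycan genes, and genes of the cell's frame and ion or solute handling.

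Among surface and signalling genes, CMKLR1, the receptor for the chemoattractant chemerin, was at 0.408, 0.880 and 0.833 CPM in SRF and 34.8, 116 and 71.1 in SRF-RELA. The lowest SRF-RELA library was far above the highest SRF library, with a log2 fold change of 6.74 (SE 0.67, adjusted p = 0.000721, 2.94e-09 with the block). CDH3, which encodes P-cadherin, a cell adhesion molecule of basal epithelia, went from 0, 0.0383 and 0 CPM to 17, 50.1 and 21.5. The SRF group held 1 CDH3 count in all and the SRF-RELA group 2326, a ratio of 2541 per count sequenced (95% exact interval 456 to 100423, counting error only), and the edgeR adjusted p was 0.000952. DUSP2 and PTPN7, phosphatases that switch off MAP kinases, were close to 0 in SRF, with 13 and 4 counts in the group, and had 284 and 235 counts in SRF-RELA. Their log2 fold changes were 4.53 (adjusted p = 0.00634) and 5.86 (adjusted p = 0.00323), and in both all SRF-RELA libraries exceeded all SRF libraries.

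Of the matrix and glycan genes among the 12, COL11A1, a minor fibrillar collagen that sets fibril diameter, was at 4.34, 3.9 and 3.16 CPM in SRF and 35.6, 62.7 and 42.2 in SRF-RELA (log2 fold change 3.65, adjusted p = 0.00412). IGFBP5, a secreted binder of insulin-like growth factors, was at 7.01, 4.17 and 3.54 CPM and 152, 121 and 168 (log2 fold change 4.92, SE 0.63, adjusted p = 0.00323). Neither gene's groups overlapped. EXTL1, a glycosyltransferase of the heparan sulfate family, had 7 counts in the SRF group and 331 in SRF-RELA (log2 fold change 5.59, adjusted p = 0.000952). Its log2 fold change was 6.74 without SRF replicate 2 and 5.0 without SRF replicate 3.

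For ST6GAL2 and PTER the vector libraries, like those of SRF-RELA, all lay above the SRF libraries. ST6GAL2, a sialyltransferase, was at 15.6, 13.8 and 10.4 CPM in SRF, 47.5, 65.5 and 62.2 in SRF-RELA and 47.8, 37.7 and 29.7 with the vector. PTER, a phosphotriesterase-related hydrolase, was at 2.04, 2.3 and 2.53 CPM in SRF, 5.55, 5.33 and 7.19 in SRF-RELA and 5.42, 5.29 and 6.75 with the vector. SRF-RELA exceeded SRF in both, with log2 fold changes of 2.16 (adjusted p = 0.00323) and 1.41 (adjusted p = 0.00111). Against the vector, PTER in SRF-RELA differed by a log2 fold change of 0.10 (adjusted p = 1) and in SRF by -1.31 (adjusted p = 0.00707). The difference of PTER between the constructs thus came with a level in the SRF libraries that was lower than in the vector libraries.

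Of the remaining 3 genes, NES encodes nestin, an intermediate filament protein of progenitor cells. It was at 13.3, 7.69 and 14.9 CPM in SRF and 37.2, 36.5 and 40.8 in SRF-RELA (log2 fold change 1.69, adjusted p = 0.00323). PLN encodes phospholamban, the brake on the calcium pump of the muscle sarcoplasmic reticulum. It rose from 0.111, 0.344 and 0.486 to 2.09, 6.59 and 3.13 CPM (log2 fold change 3.67, adjusted p = 0.00323), with 3.03 without SRF-RELA replicate 2, its highest library. SLC5A3, a sodium-coupled transporter of the osmolyte myo-inositol, was at 56.2, 51.1 and 36 CPM and 111, 119.9 and 115 (log2 fold change 1.30, adjusted p = 0.00881). None of these 3 overlapped between groups. CDH3 also moved with single libraries, to a fitted log2 fold change of 12.61 without SRF replicate 2, which held its only SRF count, and 10.14 without SRF-RELA replicate 2. The kit marks strand, but whether counting used it is not given in the sources used here, so reads of PLN cannot be told from those of CEP85L on the other strand, and SLC5A3 shares its strand with MRPS6.

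**Figure D2:**
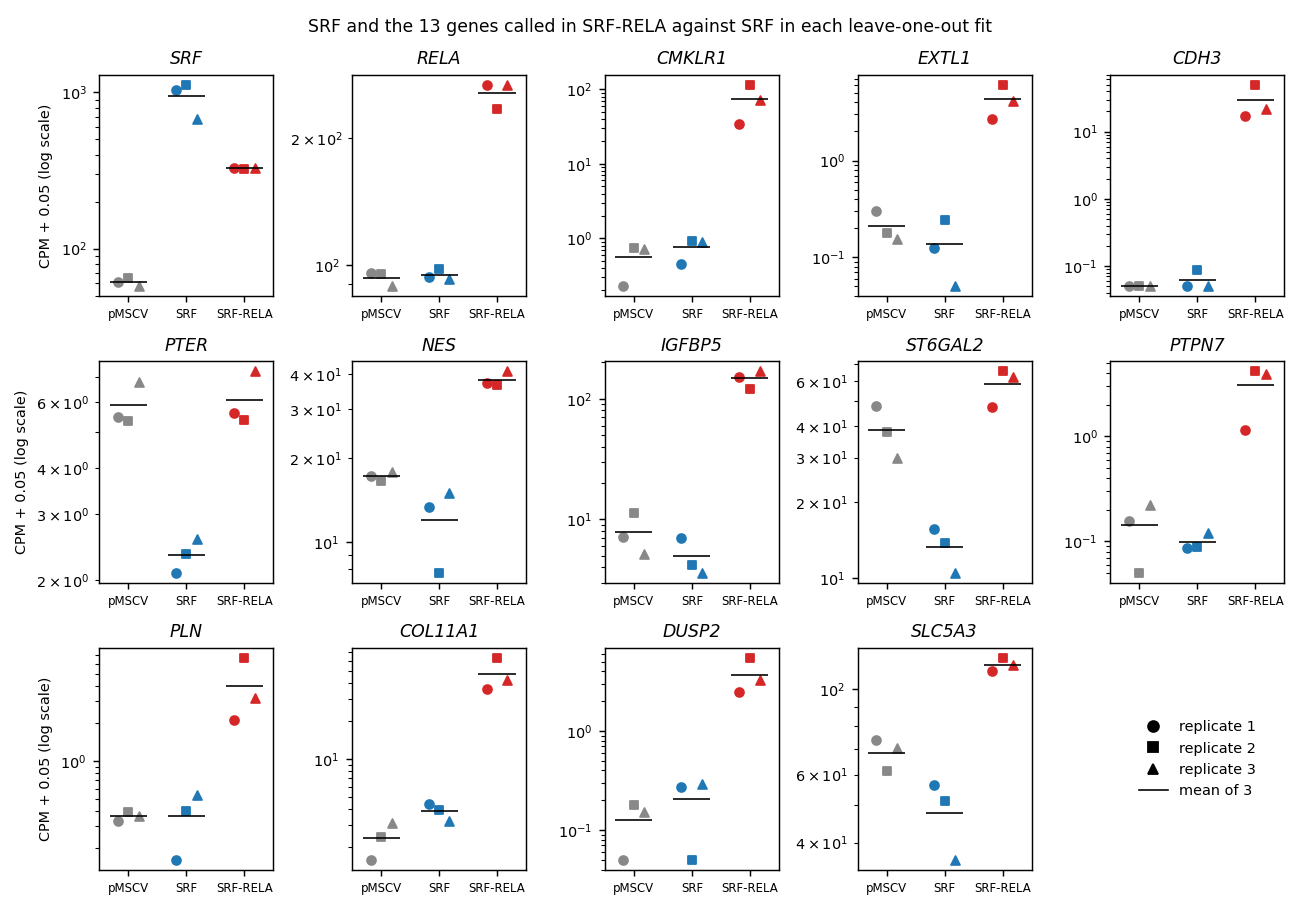
CPM plus 0.05 on a log axis for SRF and the 13 genes called in every fit without 1 library, 1 point per library of pMSCV, SRF and SRF-RELA, with a line at each group's mean. In the 13 genes every SRF-RELA point lies above every SRF point, and for PTER and ST6GAL2 it is the SRF points that lie below the vector points.

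Other higher genes named by the rule lost their calls when single libraries were left out. Of these, ACTG2, ACTA1, ARC, BTG2 and KRT17 are described further below. A further 8 remain, and 7 of them are described here. ITIH3, a heavy chain of the hyaluronan-binding inter-alpha-trypsin inhibitors, was at 0.0742, 0.268 and 0.0347 CPM in SRF and 3.95, 24.8 and 7.69 in SRF-RELA (log2 fold change 6.62, adjusted p = 0.00856, 1.62e-08 with the block). NRXN3, a neurexin of the synaptic membrane, was at 0.0742, 0.0765 and 0.347 and 22.8, 107 and 32 CPM (log2 fold change 8.31, adjusted p = 0.00884). In both, SRF-RELA replicate 2 was the highest library and the groups did not overlap. SPINT1, a serine protease inhibitor of epithelia, had a log2 fold change of 3.65, and LRRC8B, a subunit of volume-regulated anion channels, one of 2.05 (adjusted p = 0.00884 and 0.019). SLCO2A1, the prostaglandin transporter, had 1 count in the SRF group and 191 in SRF-RELA, a ratio of 209 (95% exact interval 37.0 to 8285, counting error only; adjusted p = 0.00884).

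TIMP3 and THBS1 are secreted into the matrix. TIMP3, a matrix-bound inhibitor of metalloproteinases, was at 873, 494 and 888 CPM in SRF and 2017, 2959 and 3092 in SRF-RELA, with no overlap (log2 fold change 1.86, adjusted p = 0.00947). THBS1, the matricellular protein thrombospondin 1, was at 487, 415 and 414 and 1582, 3432 and 1965 CPM, also with no overlap (log2 fold change 2.44, adjusted p = 0.0284). Calls of these 7 genes that were lost without 1 library had adjusted p-values of up to 0.164, for THBS1 without SRF replicate 3. ITIH3 lost the call in 2 of the 6 such fits, NRXN3, SLCO2A1, SPINT1 and TIMP3 in 3, and LRRC8B and THBS1 in 4. Without SRF-RELA replicate 2 the log2 fold change was 5.51 for ITIH3, 7.29 for NRXN3 and 2.58 for SPINT1. Without SRF replicate 2 it was 7.73 for ITIH3, without SRF replicate 3 it was 9.44 for NRXN3, and without SRF replicate 1 it was 9.03 for SLCO2A1.

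The other 37 genes called without the block, all higher, were outside the naming rule, and 30 of them are protein coding. The 28 with over 3 counts in the SRF group had log2 fold changes of 0.49 to 5.73. EFHD1, a mitochondrial calcium-binding protein, and B4GALNT3, a glycosyltransferase, had no count in SRF and were at least 80.1-fold and 62.3-fold higher, against a floor of 3 counts over the group. The remaining 7 had 1 to 3 counts there. EFHD1, B4GALNT3 and a pair of growth factor genes among the 37 are named here after their values were seen. PDGFB, a ligand of the PDGF receptors, was at 0, 0.0383 and 0.139 CPM in SRF and 1.38, 3.96 and 4.89 in SRF-RELA (log2 fold change 5.73, adjusted p = 0.0357). FGF1, a fibroblast growth factor, was at 3.52, 3.56 and 8.23 CPM in SRF and 15, 20.9 and 16.6 in SRF-RELA (log2 fold change 1.80, adjusted p = 0.0492). Both were higher in all SRF-RELA libraries than in any SRF library, but when the 6 libraries were left out in turn, each of these genes still passed in only 1 of the 6 fits. Of the 72 genes, 16 passed in none of them.

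Muscle actins were among the higher genes, to unequal degrees. ACTG2, the enteric smooth muscle actin, was at 2.52, 7.08 and 27.4 CPM in SRF and 139.8, 384 and 211 in SRF-RELA. ACTA1, the skeletal muscle actin, was at 0.185, 0.0383 and 0.0347 and 8.13, 114 and 19.8 CPM. In both the groups were far apart, and replicate 2 was the highest SRF-RELA library. The log2 fold changes were 4.35 (SE 0.81, adjusted p = 0.0357, 0.00197 with the block) and 9.09 (SE 1.69, adjusted p = 0.0357, 0.000679 with the block). Each call was lost in 4 of the 6 fits without 1 library, with adjusted p-values of up to 0.193 for ACTG2 (without SRF replicate 2) and 0.215 for ACTA1 (without SRF replicate 3). Neither passed without a count filter (adjusted p = 0.108 and 0.11), with only the 2 groups (0.240 and 0.134) or with the libraries numbered 2 left out (0.747 and 0.0709). ACTG2 had a log2 fold change of 5.71 without SRF replicate 3, and ACTA1 10.23 without SRF replicate 1 and 7.26 without SRF-RELA replicate 2.

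ACTC1, the cardiac actin, did not pass in edgeR without the block, though it did with the block and by the DESeq2 Wald test without one (adjusted p = 2.37e-05). It was at 0.0742, 0 and 0.0694 CPM in SRF and 1.82, 42.7 and 9.11 in SRF-RELA, and its log2 fold change of 8.44 had an adjusted p of 0.117 without the block and 0.00168 with it. The actin genes resemble each other closely in coding sequence, so some reads could have been split between them. ACTA2, the vascular smooth muscle actin used as a smooth muscle marker, did not pass in either fit: it was at 44, 35.9 and 61.3 CPM in SRF and 49.3, 140.3 and 55.4 in SRF-RELA, and the groups overlapped (log2 fold change 0.83, adjusted p = 0.622, 0.506 with the block). Only SRF-RELA replicate 2 stood above the SRF libraries.

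The promoter windows of ACTG2, ACTA1 and ACTC1 hold a CArG box, the element that SRF binds, and are shown to place it, as is that of RPE65, which like ACTC1 was called by edgeR with the block and not without it. The box is in capitals, and the start is that of the RefSeq promoter table (build GRCh38.p14), with EGR1, an SRF target that passed in neither fit, for comparison. The ACTG2 stretch is chr2:73892888-73892917 on the plus strand, ACTA1 chr1:229434142-229434231 and ACTC1 chr15:34795639-34795668 on the minus strand, RPE65 chr1:68449960-68450046 on the minus strand and EGR1 chr5:138465334-138465445 on the plus strand.
ACTG2: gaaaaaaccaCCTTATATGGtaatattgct
ACTA1: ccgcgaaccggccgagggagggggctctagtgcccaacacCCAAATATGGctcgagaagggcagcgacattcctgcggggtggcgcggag
ACTC1: gcgaaggggaCCAAATAAGGcaaggtggca
RPE65: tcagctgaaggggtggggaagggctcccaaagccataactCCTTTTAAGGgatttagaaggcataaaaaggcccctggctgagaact
EGR1: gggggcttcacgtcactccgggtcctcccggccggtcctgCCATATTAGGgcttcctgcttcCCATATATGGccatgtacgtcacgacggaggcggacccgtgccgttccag

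The ACTG2 box shown begins 110 bases before the start, and a further box, CCTTTTTAGG, begins 73 bases before it. The ACTA1 box begins 97 bases before the start, that of ACTC1 109, that of RPE65 52, and the EGR1 boxes 105 and 83. RPE65, the retinoid isomerase of the eye, went from 0.148, 0.0383 and 0.139 CPM in SRF to 2.67, 10.8 and 5.26 in SRF-RELA, without overlap (log2 fold change 5.82, adjusted p = 0.0641, 0.000594 with the block). The naming rule required this lack of overlap. Windows of 250 bases before to 50 after the start were matched for 46 of the 63 higher genes, and 2 of them, ACTG2 and ACTA1, held a CArG box on either strand (4.35%). Over the 12153 tested genes with a window the share was 1.14%. With the block, 6 of 168 matched higher genes (3.57%) and 3 of 54 matched lower genes (5.56%) held one, SRF among the latter. A match describes these letters only, and EGR1 and the kinase gene MYLK hold boxes in the same window and passed in neither fit.

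The list of smooth muscle contractile genes had 24 tested members. ACTG2 and PLN were higher without the block, and with it MYH11, CSRP1, SMTN and ACTC1 passed as well, all higher. Among all genes tested, 0.340% were called higher without the block and 1.26% with it. With the block and only the 2 groups, MYH11, CSRP1 and SMTN did not pass (adjusted p = 0.0694, 0.0634 and 0.0996). The DESeq2 Wald test without the block called MYH11 (adjusted p = 0.00766), CSRP1 (0.0342) and ACTC1, and not SMTN (0.149). The list's median log2 fold change was 0.70, and 19 of the 24 were above 0, against a median of -0.01 and 48.2% above 0 over all genes tested. MYH11, smooth muscle myosin heavy chain, was at 0.705, 0.918 and 0.833 CPM in SRF and 1.82, 22.5 and 4.22 in SRF-RELA (log2 fold change 3.59, adjusted p = 0.161, 0.0479 with the block). It lies over NDE1 on the other strand. CSRP1, a LIM protein of the actin cytoskeleton, was at 182, 264 and 284 and 357, 790.2 and 481 CPM (log2 fold change 1.19, adjusted p = 0.21, 0.00364 with the block). In both genes replicate 2 was the highest SRF-RELA library, and the groups did not overlap.

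Calponin (CNN1) and transgelin (TAGLN), classical smooth muscle markers, did not pass in either fit. CNN1 was at 10.5, 17.5 and 25.5 CPM in SRF and 21.3, 71.1 and 31.9 in SRF-RELA (adjusted p = 0.56, 0.0538 with the block). TAGLN was at 86.8, 191 and 336 and 258, 658 and 399 CPM (adjusted p = 0.56, 0.0635 with the block). In each pair of the same number SRF-RELA was above SRF, but the groups overlapped. VCL, the focal adhesion protein vinculin, had a log2 fold change of 0.59 (adjusted p = 0.528), and MYLK, myosin light chain kinase, one of 0.00 (adjusted p = 0.998). Among 26 cytoskeletal targets of MRTF and SRF the median was 0.27, SRF itself was the only member called by edgeR without the block, and with the block ANKRD1, a stretch-responsive muscle protein, was added (log2 fold change 3.95, adjusted p = 0.262, 0.00601 with the block). The DESeq2 Wald test without the block called SRF, ANKRD1 and also WDR1, an actin-disassembly factor (log2 fold change 0.39, adjusted p = 0.00441). In bulk libraries, a gain in a few cells cannot be told apart from a gain in all of them.

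**Figure D3:**
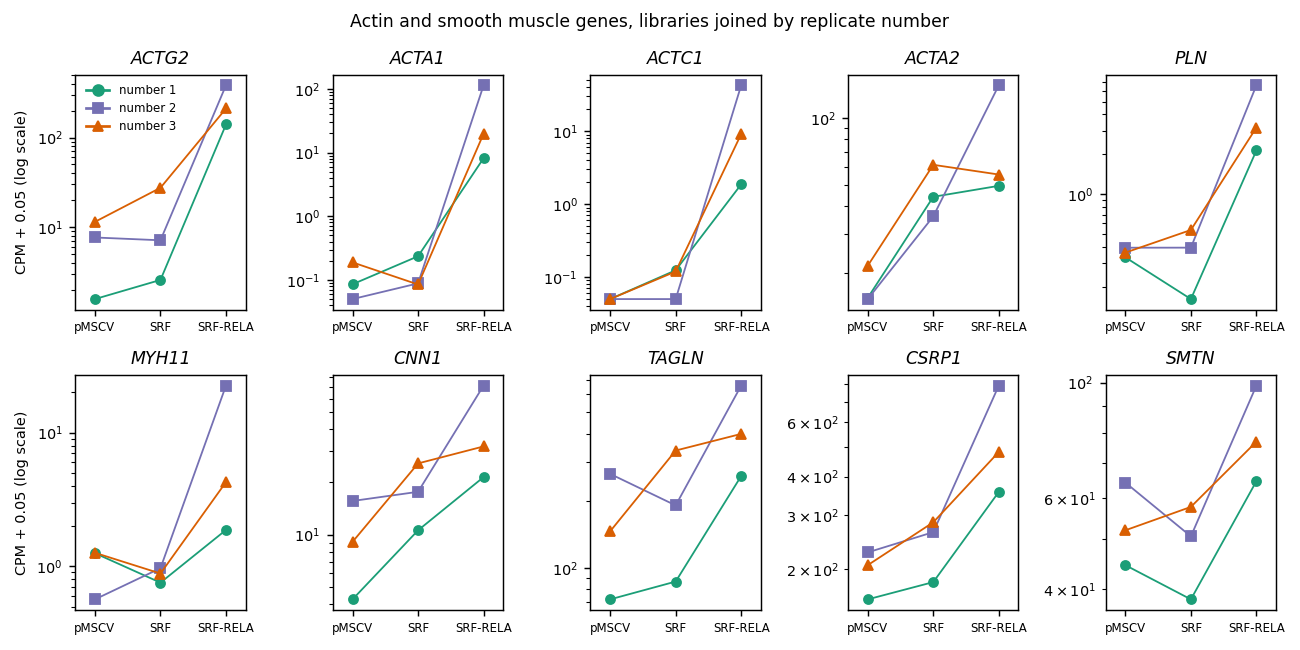
CPM plus 0.05 on a log axis for 10 muscle genes in the pMSCV, SRF and SRF-RELA libraries, with lines joining libraries of the same replicate number. ACTG2, ACTA1 and ACTC1 are far higher in SRF-RELA than in SRF in all 3 pairs, while the pairs of ACTA2 differ mainly in number 2.

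In the lists of genes of the NF-kB pathway, the pathway of the fused RELA part, edgeR called no member apart from RELA itself. The lists do not cover every gene of the pathway. Of 16 subunits and inhibitors, RELA was the only one called in either fit, and the median log2 fold change was 0.02. NFKBIA, the inhibitor that is itself a RELA target, was at 176, 124 and 144 CPM in SRF and 107, 137 and 125 in SRF-RELA (log2 fold change -0.25, adjusted p = 0.833). The groups overlapped, as they did for NFKB2 (0.03) and RELB (0.09), subunits that NF-kB activity raises, with adjusted p = 0.955 and 0.896. Over all 18544 genes tested, edgeR called 0.388% without the block and 1.73% with it, and 1769 had an unadjusted p under 0.05 without it. At such shares a list of this kind need not hold a called gene. Of 43 NF-kB target genes none was called by edgeR in either fit, 1 had an unadjusted p under 0.05, and the median was -0.15. That one, CXCL11, a chemokine that interferon also raises, was named after its values were seen: it was at 3.41, 0.383 and 3.26 CPM in SRF and 10.6, 48.9 and 25.5 in SRF-RELA, with no overlap (log2 fold change 3.62, adjusted p = 0.0967, 0.0547 with the block). It was also the 1 member of this list that the DESeq2 Wald test called (adjusted p = 0.00376).

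CXCL8, the neutrophil chemokine, was at 237, 337 and 196 CPM in SRF and 56.5, 394 and 142 in SRF-RELA (adjusted p = 0.932). IL6 was at 33.6, 14.2 and 8.75 and 8.44, 21.1 and 4.22 CPM (adjusted p = 0.817), and CCL2, the monocyte chemokine, at 188, 176 and 281 and 86.7, 229 and 195 (adjusted p = 0.844). The groups overlapped in all 3 genes, and SRF-RELA was higher in the pair numbered 2 and lower in the pairs numbered 1 and 3. ICAM1, an adhesion receptor for leukocytes, had a log2 fold change of 0.53 (adjusted p = 0.6), TNFAIP3, a feedback inhibitor, 0.20 (adjusted p = 0.906) and BIRC3, an inhibitor of apoptosis, -0.19 (adjusted p = 0.774). No change of these genes was called, which does not show that changes are absent. The SE of their log2 fold changes ran from 0.20 (BIRC3) to 0.98 (CXCL8), so the size of change that could be detected differed between them. Promoter windows with an NF-kB site made up 4.35% of matched higher genes (2 of 46) and 6.63% of matched tested genes, and with the block 8.33% of higher and 14.8% of lower genes.

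Immediate early genes are the other class of SRF targets. Of 31 tested, ARC and BTG2 were higher without the block and EGR2 and DUSP5 also with it, while the list's median was -0.17. The shares called higher over all genes tested were 0.340% without the block and 1.26% with it. ARC, an activity-regulated gene of neurons, was at 0.223, 0.344 and 0.521 CPM in SRF and 1.95, 1.96 and 1.67 in SRF-RELA (log2 fold change 2.37, adjusted p = 0.0354). BTG2, an antiproliferative gene, was at 3.3, 2.22 and 2.6 and 6.26, 6.77 and 4.89 CPM (log2 fold change 1.17, adjusted p = 0.0375). Neither gene's groups overlapped, yet all 6 fits without 1 library lost the call of ARC, and 5 lost that of BTG2, with adjusted p-values of up to 0.149 (ARC, without SRF replicate 1 or 2) and 0.201 (BTG2, without SRF-RELA replicate 2).

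EGR2, a zinc finger factor, shows what the block changes. It was at 19.2, 3.98 and 9.44 CPM in SRF and 46.1, 24.1 and 33.2 in SRF-RELA, higher in each pair, with replicate 1 the highest and replicate 2 the lowest of each group (log2 fold change 1.67, adjusted p = 0.361 without the block and 0.000682 with it). FOS and EGR1 themselves were spread more widely within groups than between them. EGR1 was at 994, 113 and 418 CPM and 877, 189 and 419.6 (adjusted p = 0.993, 0.731 with the block), and FOS, given above, had an adjusted p of 0.933 (0.748 with the block). DUSP5, an ERK phosphatase, had a log2 fold change of 1.04 (adjusted p = 0.363, 0.00245 with the block).

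The 9 lower genes were SRF and 8 others. VEGFA, the main growth factor of blood vessels, was at 215, 381 and 241 CPM in SRF, 137, 106 and 145 in SRF-RELA and 155, 192 and 249 with the vector (log2 fold change -1.09, adjusted p = 0.0375). EPM2A, the glycogen phosphatase laforin, was at 13, 12.2 and 11.6 CPM in SRF, 7.46, 7.92 and 7.81 in SRF-RELA and 6.8, 8.08 and 6.75 with the vector (log2 fold change -0.64, adjusted p = 0.0404). All SRF libraries lay above all SRF-RELA libraries in both. For EPM2A they also lay above all vector libraries, with a log2 fold change of 0.80 for SRF against the vector.

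The carboxypeptidase M gene, which encodes a membrane peptidase and overlaps MDM2 on the other strand, was at levels of 7.23, 7.42 and 7.67 CPM in SRF and 2.71, 3.47 and 2.59 in SRF-RELA (log2 fold change -1.32, adjusted p = 0.0375). AVPI1, a vasopressin-induced gene, had a log2 fold change of -0.84, and SAGE1, a cancer-testis antigen, -0.60 (adjusted p = 0.0225 and 0.0284). ENSG00000248187, a long noncoding RNA on chromosome 4, was at 5.79, 5.47 and 8.89 CPM in SRF, 1.33, 2.03 and 1.21 in SRF-RELA and 0.531, 0.516 and 1.63 with the vector (log2 fold change -2.10, adjusted p = 0.0349). ENSG00000271882, another noncoding RNA, had a log2 fold change of -1.60 (adjusted p = 0.0404). RPL7AP28, a pseudogene of a ribosomal protein whose reads can be shared with its parent, had 46 counts in the SRF group, 1 in SRF-RELA and 0 in the vector libraries (adjusted p = 0.0375). Apart from SRF, each lower gene lost its call in 5 or 6 of the 6 fits without 1 library, with adjusted p-values of up to 0.227 (VEGFA, without SRF-RELA replicate 2).

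The block takes out differences between replicate numbers that the groups share. Of the 26 named genes that edgeR called only with it, 15 were also called by the DESeq2 Wald test without it, and 12 did not pass with the block and only the 2 groups. Among the higher ones, F3, the tissue factor that starts coagulation, was at 38.1, 42.6 and 85.9 CPM in SRF and 105, 206 and 242 in SRF-RELA (log2 fold change 1.76, adjusted p = 0.205, 0.000909 with the block). MEST, an imprinted gene, was at 6.45, 16.5 and 26.6 and 37.1, 53.9 and 93.2 CPM (adjusted p = 0.335, 0.00103 with the block), and LFNG, the glycosyltransferase that tunes Notch, at 0.705, 1.91 and 2.05 and 3.82, 6.87 and 7.56 (adjusted p = 0.137, 0.000577 with the block). Each was higher in SRF-RELA in all 3 pairs. This follows from the naming rule, which kept only genes whose groups do not overlap. IGFBP3 (2.25, adjusted p = 0.0532, 0.00521 with the block) joined IGFBP5 with the block. In the matricellular list the proteoglycan gene VCAN (1.05, adjusted p = 0.443, 0.0079 with the block) joined THBS1. LOXL3 of the same list was called with the block in the other direction, lower (-0.62, adjusted p = 0.321, 0.00541 with the block). Neither VCAN nor LOXL3 passed with the block and only the 2 groups (adjusted p = 0.0831 and 0.198).

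On the lower side, the block added 79 genes. With the block and only the 2 groups, of the 4 genes described next CCN5 alone passed. TNFRSF14, a receptor of the tumour necrosis factor family, was at 26.2, 20.5 and 29.1 CPM in SRF and 16.6, 12.1 and 18.3 in SRF-RELA (log2 fold change -0.67, adjusted p = 0.11, 0.00168 with the block). CAT, the peroxide-degrading enzyme catalase, was at 83.2, 82.6 and 78.9 and 65.2, 51.3 and 47.9 CPM (log2 fold change -0.55, adjusted p = 0.231, 0.00525 with the block). CCN5, a matricellular protein, had the larger change: it was at 32.7, 15.3 and 15.1 and 8.97, 1.68 and 4.85 CPM (log2 fold change -2.03, adjusted p = 0.252, 0.00616 with the block). In all 3 the groups did not overlap, which the naming rule required of them. PLIN2, the coat protein of lipid droplets, was lower in each pair although its groups overlapped (log2 fold change -0.56, adjusted p = 0.594, 0.00611 with the block).

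In most other lists edgeR called 1 member without the block, beside 0.388% of all genes tested. Matrix genes were called in single members: COL11A1 of 27 collagens (median log2 fold change 0.21), THBS1 of 30 matricellular and elastic fibre genes (0.29), TIMP3 of 22 TIMPs and metalloproteinases (0.03), IGFBP5 of 8 IGF ligands and binding proteins (0.13). Among 14 cadherins (median -0.11) CDH3 was called, and CDH5 also with the block and by the DESeq2 Wald test. KRT17, an injury-responsive keratin, was called among 11 keratins (0.32). KRT17 was at 0.297, 0.306 and 0.903 CPM in SRF and 5.37, 37.7 and 7.73 in SRF-RELA (log2 fold change 5.10, adjusted p = 0.0498). Its groups did not overlap, and its call was lost in 5 of the 6 fits without 1 library, at adjusted p-values of up to 0.23 (without SRF replicate 2), with a log2 fold change of 3.68 without SRF-RELA replicate 2 and 5.84 without SRF replicate 3. ACTA1 was the only one of 13 tested striated muscle genes called by edgeR in either fit or by DESeq2, and their median log2 fold change was 0.27 (0.18 with genes at or under the floor set to their bound).

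Lists of growth, interferon and lineage genes had no member called by edgeR without the block. This held for 34 proliferation genes (median log2 fold change 0.11, 1 at an unadjusted p under 0.05), 32 interferon response genes (0.29, 3), 24 targets of TGF-beta and YAP (0.20, 3), 10 bone, cartilage and fat genes (0.00, 1) and 9 SRF cofactors (0.14, 0). Of all 18544 genes tested, 0.388% were called and 1769 had an unadjusted p under 0.05. Lists of these sizes therefore need not hold a called gene. The DESeq2 Wald test called 1 member over these lists, ANKRD1 among the TGF-beta and YAP targets (adjusted p = 0.0242). With the block, ANKRD1 was higher there too and PLIN2 among the lineage genes was lower. The proliferation median was 0.75 without SRF replicate 3. Of 5 tested endothelial markers, TEK and CDH5 were higher with the block and not without it in edgeR. CDH5, the cadherin of endothelial junctions, was also called by the DESeq2 Wald test without the block (adjusted p = 0.0119), and neither gene passed with the block and only the 2 groups (adjusted p = 0.0692 for CDH5 and 0.0860 for TEK). TEK, the angiopoietin receptor, was at 72.3, 83.2 and 79.7 CPM in SRF and 105, 306 and 190.5 in SRF-RELA (adjusted p = 0.384, 0.0342 with the block), and the 6 endothelial markers summed to 89.6 to 115 CPM in SRF and 120 to 327 in SRF-RELA. PECAM1 was at 14.8 to 28.0 CPM in SRF and 11.4 to 18.05 in SRF-RELA, and CLDN5 had no count in SRF. The part of endothelial markers in the other results was not tested.

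**Figure D4:**
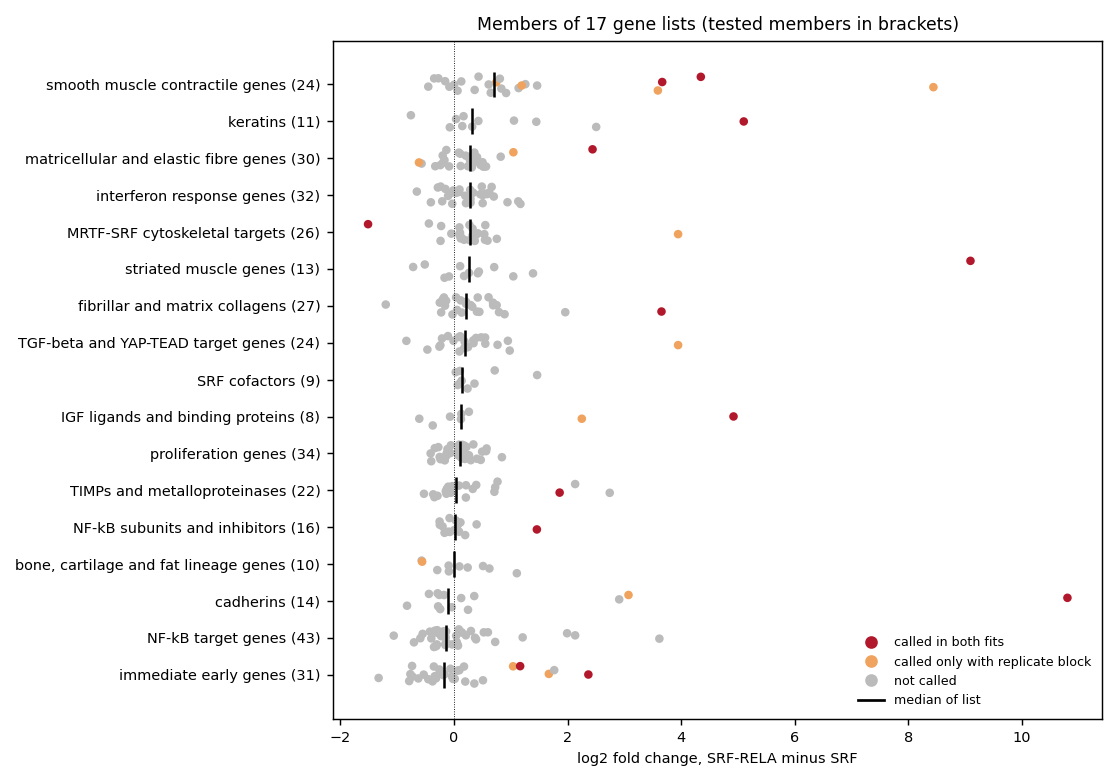
Log2 fold change of SRF-RELA against SRF for each tested member of 17 gene lists, 1 point per gene, with a tick at the list's median. Medians lie between -0.17 (immediate early genes) and 0.70 (smooth muscle genes). Members called without the block, other than SRF, lie to the right of their list's median. Of those called only with it, LOXL3 and PLIN2 lie to the left.

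SRF-RELA was also contrasted directly with the other fusions. They share the SRF-RELA libraries with the contrast above, and genes picked for high SRF-RELA values lean towards this group. Against SRF-FOXO1, 1 gene passed, RELA (0.00539% of genes tested), with a log2 fold change of 1.54. Against SRF-ICA1L, 2 genes passed (0.0108%), of which RELA, at 1.53, was the higher one. Against SRF-PDGFRB 30 genes passed (0.162%), and against the vector 34 (0.183%). The block raised these numbers to 31 for SRF-FOXO1 (0.167%), 3 for SRF-ICA1L (0.0162%), 157 for SRF-PDGFRB (0.847%) and 180 for the vector (0.971%). SRF itself differed from the vector in 5 genes (0.0270%), and in 45 with the block (0.243%).

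Several of these genes were also high with the FOXO1 and ICA1L fusions. CMKLR1 was at 41.1, 122 and 80.7 CPM with SRF-FOXO1, 38.8, 104 and 70.6 with SRF-ICA1L and 1.67, 1.82 and 2.89 with SRF-PDGFRB, beside 34.8, 116 and 71.1 in SRF-RELA. It did not pass against SRF-FOXO1 (log2 fold change -0.17, adjusted p = 0.905) and was above SRF-PDGFRB (5.22, adjusted p = 0.00185). COL11A1 had log2 fold changes of -0.93 against SRF-FOXO1 (adjusted p = 0.478) and 4.01 against SRF-PDGFRB (adjusted p = 0.0029).

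Some genes separated SRF-RELA from SRF-FOXO1 once the block was used. Of the 31 genes called with it, 11 were higher and 20 lower in SRF-RELA. Those described here are all among the higher ones, and 1 of the 6 named genes called was lower. ITIH3 was at 0.403, 1.64 and 0.463 CPM with SRF-FOXO1 and 5.5, 17.1 and 7.26 with SRF-ICA1L, against 3.95, 24.8 and 7.69 in SRF-RELA (SRF-RELA against SRF-FOXO1: log2 fold change 3.72 with the block, adjusted p = 1.81e-06, and 0.381 without it). EXTL1 was at 0.335, 0.979 and 0.509 CPM with SRF-FOXO1, 6.69, 7.33 and 4.05 with SRF-ICA1L and 2.67, 6.07 and 4.09 in SRF-RELA (SRF-RELA against SRF-FOXO1: 2.81 with the block, adjusted p = 0.00505, and 0.212 without it). In both genes the SRF-ICA1L libraries overlapped those of SRF-RELA, and all SRF-FOXO1 libraries lay below them. CDH3 (1.35, adjusted p = 0.0219), SLC5A3 (0.93, adjusted p = 0.0369) and KRT12, a corneal keratin (3.66, adjusted p = 0.0256), passed in the same direction with the block.

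ACTA1 separated SRF-RELA from SRF-ICA1L instead. It was at 0.356, 0.556 and 0.250 CPM in SRF-ICA1L, 2.85, 110.0 and 13.3 in SRF-FOXO1 and 8.13, 114 and 19.8 in SRF-RELA. The SRF-ICA1L libraries stayed below all SRF-RELA libraries, and the contrast passed with the block only (log2 fold change 6.69, adjusted p = 0.0171, and 0.999 without it). ACTG2, at 165, 200.5 and 211 CPM with SRF-ICA1L and 396, 590.3 and 485 with SRF-FOXO1, did not pass against either (log2 fold changes 0.31 and -1.03, adjusted p = 0.999 and 0.571).

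**Figure D5:**
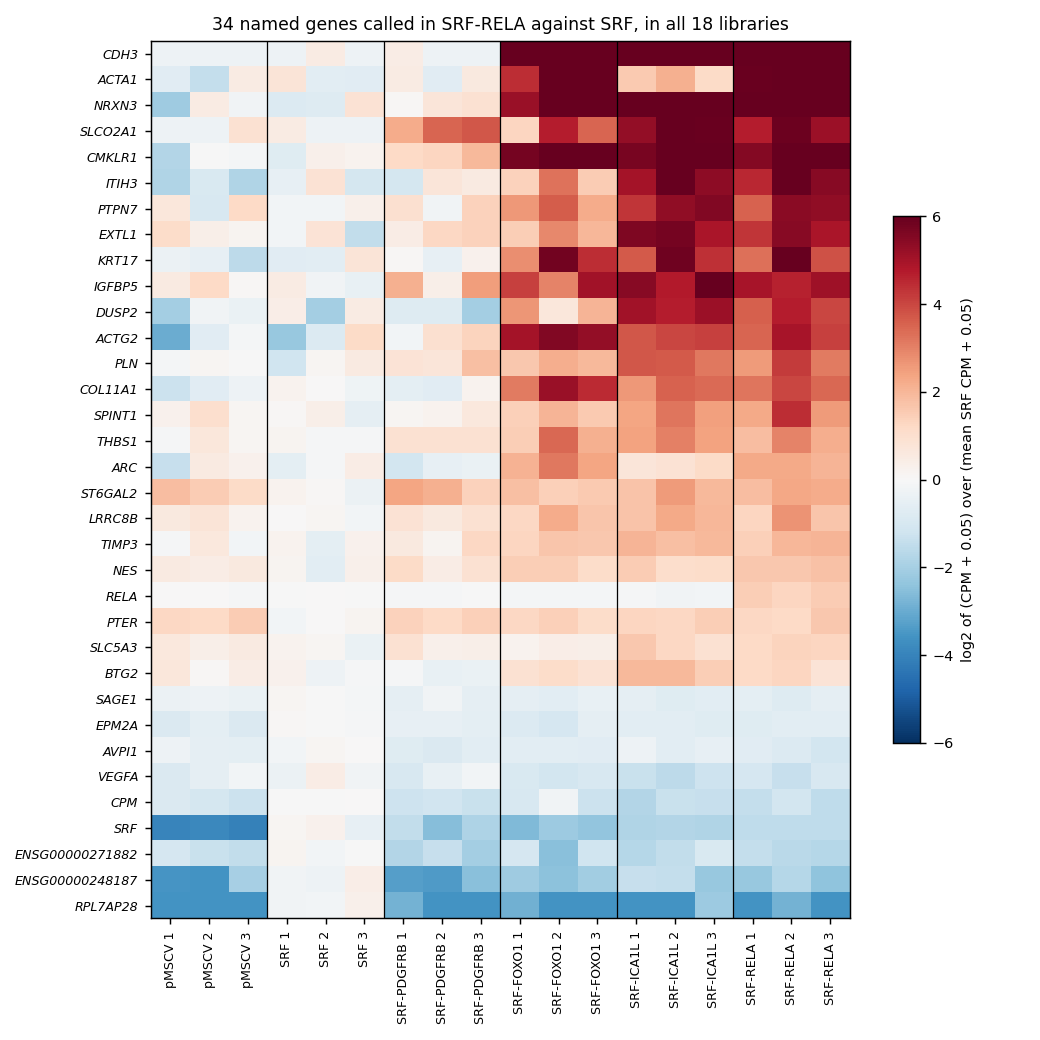
Levels of 34 named genes called in SRF-RELA against SRF (1 per line) in the 18 libraries (1 per column), as log2 of CPM plus 0.05 over the mean of the SRF libraries plus 0.05. Colours stop at -6 and 6. The columns of SRF-RELA, SRF-FOXO1 and SRF-ICA1L look alike for most higher genes, and those of SRF-PDGFRB are nearer to SRF and the vector.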

How the data were processed

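RNA was extracted from MSC-hTERT cells and sequenced from stranded mRNA libraries on a NovaSeq instrument, per the labels' protocols. The authors deposited raw counts in 1 table, with Ensembl gene identifiers as lines and 1 column per library, per the file headers. The submitters' processing notes name FastQC 0.11.8, Trimmomatic 0.39, HISAT2, featureCounts, Subread 2.0.3 and the build GRCh38. Neither the annotation release nor whether strand was used in counting is given in the sources used here, so overlapping or similar genes may share reads.

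Of 61487 identifiers 40522 have a count. Symbols came from a gene name table (61369) and GENCODE 29 (105 more), and 13 identifiers have none. CPM is a count divided by the library's total on the usual scale, without TMM factors. Totals over the 18 libraries ran from 19362319 to 29806771 counts. A group total of 0 was read as at most 3 counts, and intervals cover counting error only, since reads carry no molecular identifiers. Replicates of each group differed by more than sampling noise (chi-square per degree of freedom 22.7 to 138), so none was merged.

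Genes were filtered with filterByExpr (minimum count 10), scaled by TMM and fitted in edgeR 4.0.16 (R 4.3.3, limma 3.58.1) with a robust quasi-likelihood model over all 18 libraries and 6 groups, with 12 residual degrees of freedom and a common biological coefficient of variation of 0.225. Tests are two-sided quasi-likelihood F tests with Benjamini-Hochberg adjustment over the 18544 genes, called under 0.05. The standard error is the absolute log2 fold change divided by the square root of F. The script was tested on simulated counts.

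To check for pairing by replicate number, deviations from group means were correlated across tested genes. The correlations of same-numbered SRF and SRF-RELA libraries were 0.376, 0.310 and 0.313, and those of different numbers lay between -0.22 and -0.08. The numbers therefore pair the libraries, as read from the values; the labels do not say what a number marks. With the number as a block, 10 residual degrees of freedom remained, the coefficient of variation was 0.150, and the values stand beside the others.

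The comparison, the gene lists and the naming rule were chosen with earlier results of these data known. Named genes are SRF, RELA, 9 muscle and SRF target genes and 9 NF-kB genes, all lower genes, the 20 higher genes with the smallest p among those whose mean log2 CPM is 0 or more and whose groups do not overlap, up to 8 genes per direction called only with the block, and called members of lists, 77 in all, of which 1 is not reported here. CXCL11, THY1, KRT12, EFHD1, B4GALNT3, PDGFB and FGF1 were named outside it, after their values were seen. CArG boxes and NF-kB sites were searched by pattern on both strands of RefSeq promoter windows. Alternatives were scaling by total count or by DESeq2 size factors, the Wald test of DESeq2 1.42.0, a stricter count filter (10 counts in each library) or none, a minimum log2 fold change of 1, a fit of the 2 groups alone, the block, and leaving out each library or all libraries numbered 2.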

Additional observations from a re-analysis of the deposited data

How the results depend on the processing

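The count of 72 genes moved with the fit and with the libraries used. The replicate block raised it to 321, and to 131 with only the 2 groups in the fit, while only the 2 groups without the block gave 12. It was 196 with the DESeq2 Wald test, 18 with at least 10 counts in every library and 11 with the libraries numbered 2 left out. Without 1 library it ranged from 13 to 398, and from 13 to 56 in fits with no block. With the block and without 1 library it was 398, 161 and 231 (SRF replicates 1, 2 and 3) and 238, 126 and 141 (SRF-RELA replicates 1, 2 and 3). DESeq2 size factors gave 73, scaling by total count 79, no count filter 71, of which 50 were among the 72, and a log2 fold change of at least 1 gave 66. Of 33 named genes called besides SRF and RELA, 26 lost the call with only the 2 groups, 24 with the libraries numbered 2 left out, 7 without a count filter, 7 of 19 tested with at least 10 counts in every library, 5 with the block and only the 2 groups, and 1 with DESeq2. Of the 77 named genes, the block raised the number called to 6 against SRF-FOXO1, 2 against SRF-ICA1L, 31 against SRF-PDGFRB, 39 against the vector and 8 for SRF against the vector. Without the block these were 1, 1, 14, 22 and 4. All these contrasts share libraries, and no library was left out of the contrasts other than SRF-RELA against SRF.

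SRF was no longer called with only the 2 groups (log2 fold change -1.51) or with the libraries numbered 2 left out (-1.40), and ranged from -1.70 to -1.38 without 1 library. RELA was called under every alternative run. Leaving out the libraries numbered 2 moved the list medians of cytoskeletal targets to 0.21, matricellular genes to 0.16 and cadherins to 0.26. The median of TGF-beta and YAP targets was 0.27 with the block and only the 2 groups. That of bone, cartilage and fat genes was -0.0227 with total count scaling, -0.0896 with at least 10 counts, -0.0881 with only the 2 groups, -0.0943 with the libraries numbered 2 left out, and 0.12 with the block, with or without the other groups. Without 1 library, medians ranged from -0.37 to 0.38 (immediate early), 0.16 to 0.35 (matricellular), -0.0348 to 1.10 (keratins), 0.10 to 0.39 (striated muscle), -0.12 to 0.75 (proliferation), 0.0824 to 0.32 (TGF-beta and YAP) and -0.14 to 0.14 (bone, cartilage and fat).

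Reversals were limited to genes not called in any direction. With the libraries numbered 2 left out, the log2 fold change was -0.017 for ACTA2, -0.0062 for MYLK, -0.10 for NFKB2, -0.0011 for RELB and -0.17 for TNFAIP3. MYLK was at -0.0184 with total count scaling, and EGR1 at 0.24 with the block and 0.21 with the block and only the 2 groups. Without 1 library, values spanned 0: -0.28 to 0.33 for MYLK, -1.44 to 0.32 for FOS, -0.74 to 0.91 for EGR1, -0.10 to 0.15 for NFKB2, -0.23 to 0.46 for TNFAIP3, -1.37 to 0.11 for CXCL8, -1.58 to 0.0316 for IL6 and -0.62 to 0.011 for CCL2. The causes of these shifts were not tested.

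With 3 libraries a group, small changes of variable genes were below what these data can resolve. For genes with few counts in SRF, the fold depends on single reads. Counts of SRF and RELA mix native and construct reads.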
